A study of Mus musculus with 48 samples.

Results

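The comparison described here is that of whole-cell RNA at 240 min with whole-cell RNA at 120 min after a block of transcription. It rests on 6 of the 48 libraries in the series, namely the 3 whose titles name total RNA at 120 min and the 3 that name total RNA at 240 min. A gene was included where all 6 libraries listed a value for it, which held for 13416 of the 23862 genes listed anywhere in the series. The cells were E14TG2a, an established line of mouse embryonic stem cells, kept in 2i medium with LIF. Every library of the comparison, those at 120 min included, came from a culture treated with 1 µM flavopiridol, so no untreated culture of the same age enters it. Each time point had 3 cultures passaged independently. The whole-cell aliquots were taken before the remaining cells were split into nucleus, cytosol and membrane, whose libraries make up most of the series. Sample titles place the last harvest at 240 min, whereas the protocol text gives 180 min. The titles were used, and the rates per hour were also computed with 180 min. At least 1 of the 6 libraries listed 18913 genes, of which 94 were in all libraries at 120 min and in none at 240 min and 74 the other way round.

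Flavopiridol inhibits CDK9, the kinase of P-TEFb that releases paused RNA polymerase II into elongation. Once new synthesis stops, the level of an mRNA falls at its rate of decay, which usually begins with shortening of the poly(A) tail and goes on with decapping and exonucleolytic digestion. Sequence elements in the 3′ untranslated region (3′UTR), among them AU-rich elements bound by the ZFP36 family and sites bound by Pumilio proteins, are known to speed the loss of the tail. The comparison therefore asks which RNAs went on falling after 120 min, and which had stopped falling or rose. Since RNA was selected by its poly(A) tail, a transcript also leaves or enters the measured pool when its tail is lost or extended.

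Each deposited value is a ratio to the level at 0 min, after the authors had scaled the libraries on long-lived mRNAs, so that a ratio of 1 is the level before the block. Whole read numbers could be recovered from these ratios for 19309 genes and summed to between 5492417 and 6770727 per whole-cell library. They can be too small by a factor common to all libraries of a gene, and they are given below as recovered reads. Of 10 marker genes of embryonic stem cells, 9 were listed in all 6 libraries, with summed recovered reads of 39006 to 41266 at 120 min and 50167 to 55040 at 240 min. Nearly all of these reads came from Pou5f1, Dppa5a and Tdgf1, none of which was called by the test below. Zfp42 had means of 4 and 3 reads, and Esrrb, the marker not listed in all 6, had 0.667 and 1.67. Recovered reads are not scaled between libraries, so the larger sums at 240 min do not show a rise. The lists for other cell types were far lower. Trophectoderm markers summed to 83 to 123 reads at 120 min and 91 to 121 at 240 min, with Elf5 and Hand1 not listed, and 10 fibroblast markers to 20 to 25 and 16 to 19, with 5 of them not listed. Primitive endoderm markers summed to 1328 to 1490 reads at 120 min and 1483 to 1679 at 240 min, nearly all from Lama1 and Col4a1, while Gata4, Sox17, Pdgfra, Foxa2 and Sparc were not listed.

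The libraries at 120 min were less alike than those at 240 min. Over the 13416 genes, the median ratio was 0.503, 0.607 and 0.613 in the 3 libraries at 120 min and 0.479, 0.513 and 0.475 at 240 min. Replicate 1 at 120 min therefore lay closer to the libraries at 240 min than to its own group. On the log2 scale the mean of the library medians moved from −0.81 ± 0.16 (SD, n = 3) to −1.03 ± 0.06 (SD, n = 3), a difference of −0.23 with a two-sided exact permutation p of 0.2, where 0.1 is the smallest that 3 against 3 allow. Without replicate 1 at 120 min the difference was −0.32. Since each library was scaled to its own long-lived mRNAs, these ratios show neither the number of cells nor the total amount of RNA per cell.

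**Figure D1:**
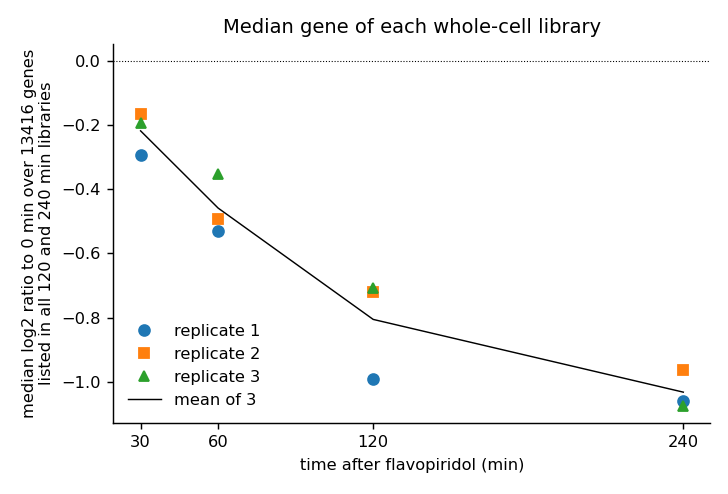
Median log2 ratio to 0 min (y axis) of each whole-cell library against time after flavopiridol in min (x axis), over the 13416 genes. Points are libraries, with a symbol for each replicate, and the line joins the means of the groups. The 3 points at 120 min spread from −0.99 to −0.71, and the 3 at 240 min lie between −1.07 and −0.96.

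Between 120 and 240 min, more genes fell than rose. By limma with Benjamini-Hochberg adjustment at 0.05, 511 genes were higher at 240 min, which is 3.81% of those tested, and 2537 were lower, which is 18.9%. The median log2 change over all 13416 genes was −0.23. For all 511 and all 2537 the libraries of the 2 times did not overlap, which held for 5819 of the 13416 genes tested. Of the genes that rose, 346 had a mean ratio above 1 at 240 min, 275 of them in all 3 libraries, while 37 had been below 0.25 at 120 min. Over all 13416 genes tested, 1845 had a mean above 1 at 240 min, 1066 of them in all 3 libraries, and 1457 had been below 0.25 at 120 min. Ratios were not tested against 1. Of the genes that fell, 2421 ended below 0.5, as did 6726 of all genes tested. The split between the directions depended on the scale. With libraries centred on the median gene 1309 genes were higher and 2033 lower, and with libraries scaled to the mitochondrially encoded mRNAs 201 were higher and 4243 lower. Leaving out 1 library at a time gave 138 to 657 higher and 700 to 3854 lower, and the largest numbers in both directions came without replicate 1 at 120 min. With the replicate number as a block in the fit, 150 were higher and 700 lower.

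Genes that rose and genes that fell differed in the make-up of their transcripts, given here as a description of protein-coding genes, by 1 annotated transcript each. The transcripts of genes that rose had a median of 12 exons, against 9 for genes not called and 7 for genes that fell. The order of the 3′UTRs was the reverse, with medians of 830, 963.5 and 1186.5 bases. The last base of the codon was G or C in a median of 66.5% for genes that rose, and in 60.3% both for genes not called and for genes that fell. Among genes that rose, 17.7% of 395 3′UTRs held the Pumilio motif TGTANATA, read on the transcript strand with N for any base, against 22.7% of 7330 for genes not called, 30.7% of 2116 for genes that fell and 24.2% of all 9841 3′UTRs. Per kilobase of 3′UTR the same order held, with 0.174, 0.222 and 0.275 matches. The AU-rich heptamer TATTTAT was found in 23.5%, 26.9% and 30.7%, and in 27.6% of all. Per kilobase that order did not hold, with 0.216 matches in genes that rose, 0.283 in genes not called and 0.279 in genes that fell. A match is a match of letters, and whether a protein was bound there was not tested.

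**Figure D2:**
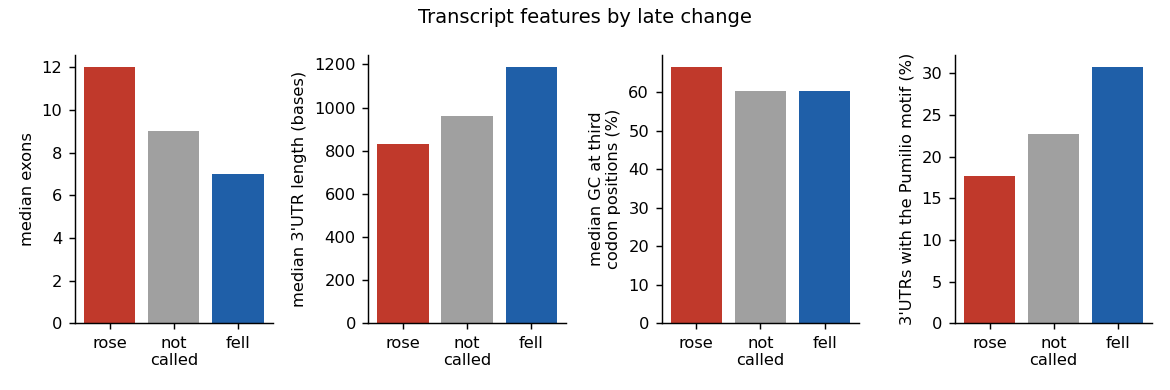
Median number of exons, median 3′UTR length in bases, median percent of codons ending in G or C, and percent of 3′UTRs with TGTANATA (y axes), for protein-coding genes that rose, were not called or fell between 120 and 240 min (bars, x axis). Exon number steps down from 12 to 9 and 7, while 3′UTR length and the share with the motif step up towards genes that fell.

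Matches in the 3′UTRs of genes described below show what these letters look like in place, on both sides of the comparison. They are given in GRCm38 with 10 transcript bases on either side, 5′ to 3′ on the strand of the gene, with the motif in capitals. The first 6 come from genes that fell and the last 2 from genes that rose, all with TGTANATA, so that genes of both directions hold it.
Rsrc2, chr5:123729035-123729062, minus strand: acgattttttTGTAAATAtcagatcagt
Dnajb5, chr4:42957853-42957880, plus strand: ttgtcctgccTGTAAATAgcatgccctc
Hexim1, chr11:103118053-103118080, plus strand: tatatacatgTGTATATAagacagcgga
Nr4a1, chr15:101274523-101274550, plus strand: accactctgtTGTAAATAagctgacgct
Bcl2l11, chr2:128159003-128159030, plus strand: acttccacttTGTAAATAtttacctcct
Kif20b, chr19:34975635-34975662, plus strand: aaaatttactTGTATATAtatatatatt
Trib1, chr15:59656177-59656204, plus strand: gctttatattTGTATATAcattttacct
Hrk, chr5:118186786-118186813, plus strand: ccaagtcctcTGTAAATActctcctgta

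The heptamer TATTTAT was likewise present in genes of both directions, here in 3 that rose (Socs3, Zfp36l2 and Mthfd2) and in 1 that fell (Btg2). Its letters are in capitals, and the windows follow the same rules.
Socs3, chr11:117966140-117966166, minus strand: tttgcacataTATTTATatttatactc
Zfp36l2, chr17:84184915-84184941, minus strand: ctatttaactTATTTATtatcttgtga
Mthfd2, chr6:83306540-83306566, minus strand: aaaatgtttgTATTTATtgaaagctta
Btg2, chr1:134077250-134077276, minus strand: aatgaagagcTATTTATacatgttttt

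A first group of risen genes had a mean ratio below 0.25 at 120 min and came back in part. Socs3, which encodes an inhibitor of JAK-STAT signalling and is induced by STAT3 (ENSMUSG00000053113, chr11:117966079-117970047), had ratios of 0.0139, 0.0316 and 0.0219 at 120 min and of 0.127, 0.149 and 0.129 at 240 min. Every library at 240 min was thus far above every library at 120 min, although all remained well under the level before the block. The log2 rise was 2.66 ± 0.35 (SE, limma adjusted p = 0.0103), on 36, 67 and 47 recovered reads at 120 min and 370, 413 and 343 at 240 min. Its mean ratio had been 0.296 at 30 min and 0.0631 at 60 min, so the course was a fall followed by a rise. Trib1, a pseudokinase that directs proteins to the COP1 ubiquitin ligase (ENSMUSG00000032501, chr15:59648350-59657099), followed the same course. Its mean ratio was 0.488 at 30 min and 0.108 at 60 min. The 3 ratios at 120 min were 0.0216, 0.0205 and 0.0174, and those at 240 min 0.105, 0.119 and 0.116. That rise was 2.52 ± 0.23 on the log2 scale (limma adjusted p = 0.0103), on 9, 7 and 6 recovered reads at 120 min and 49, 53 and 50 at 240 min.

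Rasl11b, a small GTPase of the Ras family (ENSMUSG00000049907, chr5:74195286-74199481), rose by 3.21 ± 0.54 on the log2 scale, the largest rise among the genes named by the rule (limma adjusted p = 0.014). Its ratios of 0.0118, 0.0287 and 0.0071 at 120 min stood for only 2, 4 and 1 recovered reads, and those of 0.126, 0.148 and 0.103 at 240 min for 24, 27 and 18. The depth at 120 min therefore sets the size of its fold change loosely. Smad7, an inhibitor of TGF-β and BMP signalling (ENSMUSG00000025880), had ratios of 0.075, 0.121 and 0.113 at 120 min and 0.224, 0.244 and 0.248 at 240 min, a log2 rise of 1.24 ± 0.25 (limma adjusted p = 0.0215). For Zfp36l2, which encodes a protein that binds AU-rich elements and recruits the deadenylase (ENSMUSG00000045817, chr17:84183931-84187947), the ratios were 0.168, 0.162 and 0.125 and then 0.257, 0.345 and 0.339. The log2 rise was 1.05 ± 0.23 (limma adjusted p = 0.0249). The calls of Smad7 and Zfp36l2 were lost, with limma adjusted p of up to 0.0781 and 0.0931, when any library other than replicate 1 at 120 min was left out. Zfp787, a zinc finger gene, went from 0.238, 0.101 and 0.166 to 0.523, 0.608 and 0.605, a log2 rise of 1.86 ± 0.33 (limma adjusted p = 0.016, and up to 0.0586 without replicate 3 at 120 min or replicates 2 or 3 at 240 min). All of these genes ended below 1, so their rise recovered only part of what had been lost.

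A second group rose from about the starting level to well above it. Hrk, a BH3-only activator of apoptosis (ENSMUSG00000046607, chr5:118164648-118189478), had ratios of 0.843, 1.32 and 1.33 at 120 min and 4.37, 4.67 and 4.35 at 240 min, a log2 rise of 1.97 ± 0.26 (limma adjusted p = 0.0103). The libraries at 240 min agree within a narrow range, and those at 120 min lay near the level before the block. Mthfd2, a mitochondrial enzyme of one-carbon metabolism (ENSMUSG00000005667, chr6:83305691-83325908), had ratios of 0.618, 0.66 and 0.76 and then of 2.09, 2.4 and 2.28. With a log2 rise of 1.73 ± 0.15 (limma adjusted p = 0.0103), it went from below its starting level at 120 min to above it at 240 min in every library. Slc7a5, the LAT1 transporter of large neutral amino acids (ENSMUSG00000040010, chr8:121881150-121907694), changed from 0.766, 0.805 and 0.923 to 1.57, 1.69 and 1.64, a log2 rise of 0.98 ± 0.14 (limma adjusted p = 0.0104). Both Mthfd2 and Slc7a5 are known targets of the transcription factor ATF4. Targets of ATF4 were not tested as a set, and whether ATF4 had a part in these rises was not tested. In the list of endoplasmic reticulum and unfolded protein response genes, which names Asns, Ddit3, Trib3 and Chac1, 25 of 27 were tested and none rose.

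The aminoacyl-tRNA synthetase genes, which charge tRNAs with their amino acids and include further known targets of ATF4, had more rises than falls. Of 16 genes tested, counting the Aimp and Eef1e1 partners of the multisynthetase complex, 5 rose and 2 fell, where 3.81% of all genes rose and 18.9% fell, and the median log2 change was 0.43. Yars, the synthetase for tyrosine (ENSMUSG00000028811, chr4:129189760-129219607), went from 0.707, 0.829 and 0.889 to 1.49, 1.49 and 1.51 (log2 rise 0.90 ± 0.14, limma adjusted p = 0.012). Vars, the synthetase for valine (ENSMUSG00000007029), went from 0.685, 0.604 and 0.673 to 1.02, 1.06 and 1.06 (0.68 ± 0.12, limma adjusted p = 0.0146, and up to 0.0613 with replicate 2 at 120 min or any library at 240 min left out). Tars, Aars and Nars were the other 3 that rose. The 2 that fell were the non-catalytic partners Eef1e1, from 0.384, 0.585 and 0.519 to 0.259, 0.294 and 0.271 (log2 change −0.83 ± 0.20, limma adjusted p = 0.0341, and up to 0.105 without any library other than replicate 1 at 120 min), and Aimp2. The count depended on the scale, being 9 higher and 1 lower with libraries centred on the median gene and 1 higher and 2 lower with libraries scaled to the mitochondrially encoded mRNAs. The mRNA of Atf4 had a mean ratio of 0.0876 at 120 min and 0.0428 at 240 min (log2 change −1.03 ± 0.23, limma adjusted p = 0.0275, and up to 0.092 without any library other than replicate 1 at 120 min). The activity of the ATF4 protein was not measured.

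Further genes of the group that ended above 1 had other roles. Kcnt2, a sodium-activated potassium channel (ENSMUSG00000052726, chr1:140246158-140612067), had ratios of 0.403, 1.23 and 0.243 at 120 min and 4.31, 3.7 and 4.36 at 240 min (log2 rise 3.06 ± 0.58, limma adjusted p = 0.0182). Kif26b, an atypical kinesin (ENSMUSG00000026494), had 0.499, 1.63 and 1.41 and then 5.19, 8.7 and 9.52 (2.85 ± 0.54, limma adjusted p = 0.0187). In both the libraries at 120 min were widely spread, on 6, 15 and 3 recovered reads for Kcnt2 and 3, 8 and 7 for Kif26b. Without replicate 3 at 120 min or replicates 2 or 3 at 240 min, the limma adjusted p rose to as much as 0.0605 for Kcnt2 and 0.0607 for Kif26b. For Kcnt2 replicate 1 at 240 min also mattered. Ephb2, a receptor tyrosine kinase for ephrins (ENSMUSG00000028664), was tighter, with 0.696, 0.759 and 0.643 and then 2.2, 2.52 and 2.07 (1.69 ± 0.15, limma adjusted p = 0.0103). Dennd1a, an exchange factor for Rab35 (ENSMUSG00000035392), rose from 0.745, 0.864 and 0.783 to 1.92, 1.94 and 1.93 (1.28 ± 0.13, limma adjusted p = 0.0103). Ccdc24 (ENSMUSG00000078588) rose from 0.597, 0.546 and 0.63 to 3.26, 3.97 and 3.32 (2.57 ± 0.16, limma adjusted p = 0.0103). Its ratios at 120 min stood for only 8, 6 and 7 recovered reads. Miat, a long noncoding RNA, rose from 0.968, 0.92 and 0.909 to 3.16, 2.31 and 2.92 (1.57 ± 0.18, limma adjusted p = 0.0103).

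For Ranbp1 and Nme2, how reads were counted is uncertain as well. Ranbp1, a regulator of the Ran GTPase (ENSMUSG00000005732), went from 0.436, 0.266 and 0.132 to 1.85, 1.43 and 2.85 (log2 rise 2.98 ± 0.48, limma adjusted p = 0.0131), but on 4, 2 and 1 recovered reads at 120 min and 19, 14 and 27 at 240 min. Nme2, a nucleoside diphosphate kinase (ENSMUSG00000020857), went from 0.679, 0.533 and 0.469 to 1.86, 1.9 and 2.35 (1.87 ± 0.19, limma adjusted p = 0.0103) on 8 to 14 recovered reads at 120 min and 42 to 50 at 240 min. Both are abundant mRNAs with near-identical copies or a neighbour in the genome, among which reads could be split. Of the 511 genes that rose, 109 had a mean below 10 recovered reads, against 274 of the 2537 that fell. A test of the recovered reads with limma voom called 416 of the 511 and 2438 of the 2537 in the same direction.

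**Figure D3:**
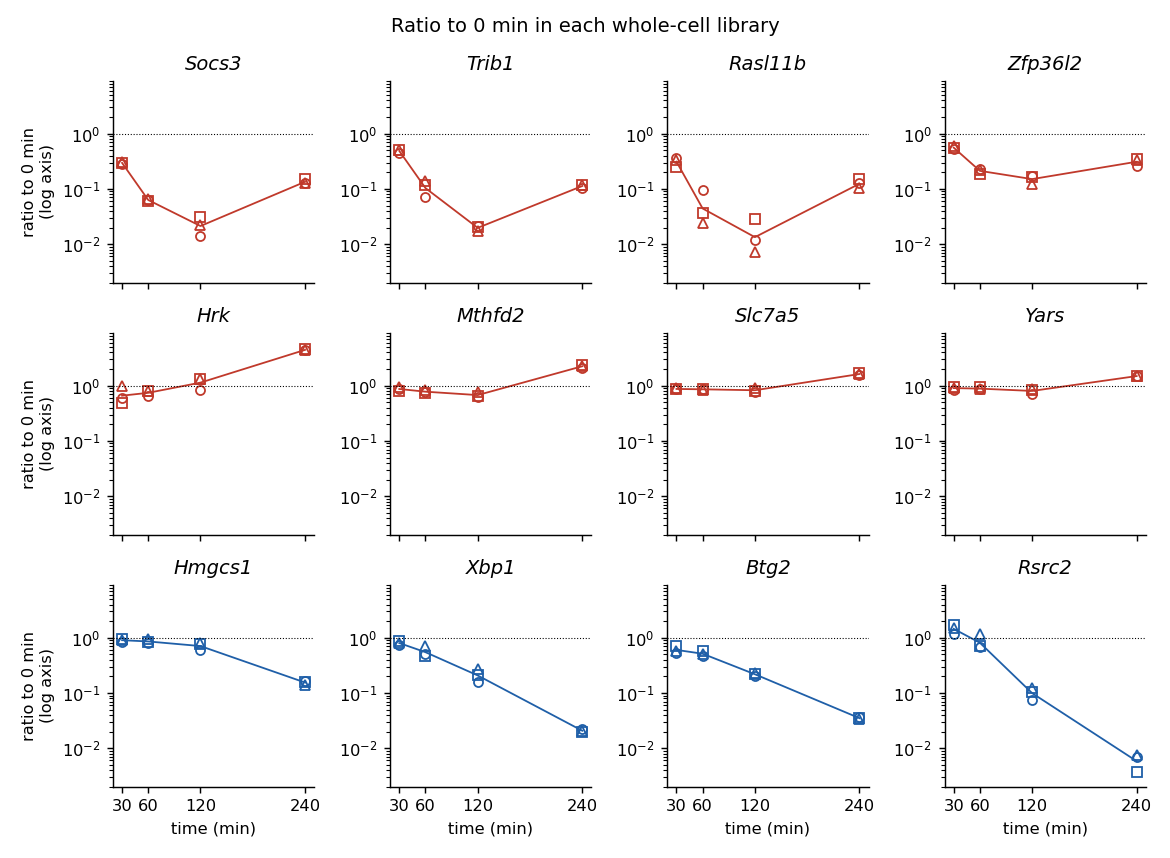
Ratio to 0 min (y axis, log scale, with a dotted line at 1) against time after flavopiridol in min (x axis) for 8 genes that rose (red) and 4 that fell (blue) between 120 and 240 min. Symbols are the 3 replicates at each time and lines join their geometric means. Socs3, Trib1, Rasl11b and Zfp36l2 turn upwards after a steep fall, Hrk, Mthfd2, Slc7a5 and Yars end above 1, and Hmgcs1, Xbp1, Btg2 and Rsrc2 fall further after 120 min.

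The largest falls took transcripts to a few reads. Rsrc2, a serine and arginine rich protein with its Pumilio motif shown above (ENSMUSG00000029422, chr5:123728426-123749414), had ratios of 0.0749, 0.106 and 0.124 at 120 min and 0.00703, 0.00368 and 0.00764 at 240 min, a 17.1-fold fall (log2 change −4.09 ± 0.38, limma adjusted p = 0.0103). Only 2, 1 and 2 recovered reads were left at 240 min, from 19, 22 and 26 at 120 min. Its mean ratio had been 1.47 at 30 min, so its loss came after 30 min. Dnajb5, a co-chaperone of HSP70, went from 0.335, 0.335 and 0.626 to 0.0272, 0.0285 and 0.0296, which was 1 recovered read in each library. Gjb5, a connexin, went from 0.132, 0.12 and 0.127 to 0.00798, 0.0125 and 0.00868 (log2 change −3.73 ± 0.27, limma adjusted p = 0.0103). Kcnk6, Pnma2, Eepd1, Ltb4r1 and Rhou completed the 8 largest falls, with log2 changes between −3.85 and −3.54. The 8 were picked among genes whose groups did not overlap. Among falls with the smallest p, Btg2, an antiproliferative protein that activates deadenylation and a p53 target (ENSMUSG00000020423, chr1:134075170-134079120), had 0.204, 0.224 and 0.228 and then 0.0369, 0.0347 and 0.0335 (−2.64 ± 0.21, limma adjusted p = 0.0103). Rpp25l, Thap11 and Cptp were equally tight, with log2 changes of −3.23, −2.57 and −2.57.

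The genes of cholesterol synthesis and uptake, which SREBP2 controls, were mostly lower at 240 min. Of 21 tested, 16 fell, none rose and 5 did not pass the test, where 18.9% of all genes fell, and their median log2 change was −1.44. Hmgcs1, which makes HMG-CoA at the head of the pathway (ENSMUSG00000093930, chr13:119690379-119708260), had ratios of 0.59, 0.761 and 0.788 at 120 min and 0.168, 0.157 and 0.14 at 240 min (log2 change −2.19 ± 0.19, limma adjusted p = 0.0103). Fdft1, squalene synthase, had 0.633, 0.654 and 0.709 and then 0.215, 0.224 and 0.207 (−1.63 ± 0.14, limma adjusted p = 0.0103). Msmo1 and Cyp51, which act on sterol intermediates, had log2 changes of −2.61 and −2.20. Srebf2, Scap, Mvk and Pmvk were among those that did not pass the test. The number that fell was 15 under both other scalings and 16 without replicate 1 at 120 min.

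Genes of the endoplasmic reticulum chaperones and the unfolded protein response had 16 of 25 lower, 9 not called and none higher, where 18.9% of all genes fell, and a median log2 change of −0.94. Xbp1, a transcription factor of that response (ENSMUSG00000020484, chr11:5520659-5525893), had ratios of 0.16, 0.21 and 0.267 at 120 min and 0.0222, 0.0197 and 0.0204 at 240 min (log2 change −3.33 ± 0.27, limma adjusted p = 0.0103). Eif2ak3, the kinase PERK, had 0.439, 0.438 and 0.452 and then 0.184, 0.18 and 0.151 (−1.37 ± 0.17, limma adjusted p = 0.0103). In both genes all libraries at 240 min lay below all at 120 min, as in all 2537 genes called lower. Hsp90b1, the chaperone GRP94, changed by −1.09 ± 0.15 on the log2 scale. Among 14 cytosolic heat shock genes 1 fell, Hspa1b with a log2 change of −3.14, and none rose. The number of heat shock genes that fell was 4 without replicate 1 at 120 min and 4 with mitochondrial scaling.

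Among 18 p53 targets 9 fell and none rose, where 18.9% of all genes fell, with a median of −0.96. Phlda3, an inhibitor of AKT, went from 0.304, 0.313 and 0.326 to 0.0734, 0.0723 and 0.0793 (log2 change −2.07 ± 0.19, limma adjusted p = 0.0103). The BCL2 family had 1 gene higher, Hrk, and 4 of 14 lower, with 2 lower when centred on the median gene and 8 with mitochondrial scaling. Bcl2l11, the BH3-only protein BIM, went from 0.21, 0.337 and 0.293 to 0.0679, 0.0801 and 0.06, a 3.99-fold fall, and Bid from 0.4, 0.445 and 0.47 to 0.178, 0.187 and 0.185 (log2 change −1.26). Both are BH3-only genes that fell over the interval in which Hrk rose.

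Among transcription regulators, shares that fell ranged from near the 18.9% of all genes upwards. Of 231 numbered Zfp genes, most of which encode KRAB or C2H2 zinc finger proteins, 77 fell, which is 33.3%, and 2 rose, with a median of −0.73. Zfp57, which keeps imprinted regions methylated, went from 0.143, 0.156 and 0.174 to 0.0177, 0.0248 and 0.025 (log2 change −2.82 ± 0.26). Of 27 genes of P-TEFb and elongation control, the target of the drug, 11 fell, which is 40.7%, and none rose. Hexim1, the inhibitor of P-TEFb (ENSMUSG00000048878, chr11:103116231-103119725), went from 0.184, 0.193 and 0.166 to 0.028, 0.0419 and 0.0347 (−2.39 ± 0.25). Mepce, which caps the 7SK RNA of the same complex, went from 0.0553, 0.0701 and 0.0734 to 0.0117, 0.0123 and 0.0067 (−2.74 ± 0.33). Of 22 Polycomb genes 5 fell, which is 22.7% and near the share of all genes, among them Cbx2 with a log2 change of −2.49. The falls in these 3 lists numbered 107, 19 and 12 without replicate 1 at 120 min, and 130, 18 and 13 with mitochondrial scaling.

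Of 17 pluripotency transcription factors 5 fell and none rose, where 18.9% of all genes fell, with a median of −0.71. The number that fell was 10 both without replicate 1 at 120 min and with mitochondrial scaling, and 2 rose when libraries were centred on the median gene. Sall4 went from 0.147, 0.171 and 0.194 to 0.0562, 0.0613 and 0.0649 (log2 change −1.49 ± 0.22, limma adjusted p = 0.0116). Klf2 and Nanog changed by −1.18 and −0.97, and their calls were lost, with limma adjusted p of up to 0.0698 and 0.0877, without any library other than replicate 1 at 120 min. Of 13 immediate early genes, which respond first to stimuli, 5 fell and none rose, and without replicate 1 at 120 min 2 rose. Nr4a1, an orphan nuclear receptor, went from 0.0574, 0.0949 and 0.0877 to 0.0211, 0.0268 and 0.0311 (−1.59 ± 0.31, limma adjusted p = 0.0196, and up to 0.0704 without any library other than replicate 1 at 120 min). Junb, an AP-1 subunit, had 0.0286, 0.0117 and 0.00768 and then 0.0539, 0.0267 and 0.0401, groups that overlap.

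Cell cycle genes fell in part, where 18.9% of all genes fell. Of 19 replication licensing genes 9 fell, which is 47.4%, with a median of −0.71, and Gins3, a subunit of the replicative helicase, changed by −2.02 ± 0.27 on the log2 scale. Of 23 mitosis genes 7 fell, which is 30.4%, and none rose, and Ttk, the checkpoint kinase MPS1, changed by −1.67 ± 0.27. Of 32 kinesin genes 6 fell, the share of all genes, and 2 rose, with Kif20b at −2.29 ± 0.23 and Kif18b at −1.77 ± 0.19. Without replicate 1 at 120 min 13 mitosis and 17 kinesin genes fell, and the same numbers fell with mitochondrial scaling. The 31 replication-dependent histone genes, whose mRNAs end in a stem-loop and mostly lack a poly(A) tail, had a median of 0.51, and 24 of them had a positive log2 change. Of those, 4 passed the test, which is 12.9% of the 31 where 3.81% of all genes rose, and none of the 31 fell. Hist1h2ae had ratios of 1.22, 1.49 and 0.919 at 120 min and 1.9, 3.55 and 3.25 at 240 min (log2 rise 1.24 ± 0.32, limma adjusted p = 0.0402, and up to 0.12 with any library but replicate 1 at 240 min left out). With libraries scaled to the mitochondrially encoded mRNAs, 1 histone gene rose and 1 fell.

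In most lists of RNA processing and decay genes, the share that fell was near the 18.9% of all genes. Clk1, a kinase of splicing factors, changed by −2.26 ± 0.21 on the log2 scale and was 1 of 3 of 15 SR splicing factor genes that fell, while 2 of 16 Hnrnp genes fell. The SR count was 11 without replicate 1 at 120 min and 10 with mitochondrial scaling, and the Hnrnp count 4 and 5. Of the 2 Hnrnp genes, Hnrnpm had a mean of only 3.17 recovered reads. Of 22 genes for deadenylation and AU-rich decay 5 fell, with Pan3, of the PAN2-PAN3 deadenylase, at −2.74 ± 0.31, and only Zfp36l2 rose. Of 23 decapping and exonuclease genes 4 fell, among them Edc3, an enhancer of decapping, at −1.30 ± 0.17, and 1 rose. Without replicate 1 at 120 min 9 and 7 genes of these 2 lists fell. Of 12 nonsense-mediated decay genes 4 fell, with Smg8 at −2.57 ± 0.24. None of 13 snoRNA host genes passed the test in either direction by limma. Of 47 translation initiation factor genes 8 fell and 1 rose, and of 17 long noncoding RNAs 4 fell and 1, Miat, rose. Without replicate 1 at 120 min 13 initiation factor genes and 8 long noncoding RNAs fell.

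Genes of the housekeeping machinery had medians near 0. For the counts that follow, 3.81% of all genes rose and 18.9% fell. Of 74 cytosolic ribosomal protein genes 2 rose and 2 fell, with a median of 0.02. Of the 2 risen, Rps19 had a mean of only 3 recovered reads. Rpl13 had ratios of 0.932, 0.877 and 0.772 and then 1.13, 1.44 and 1.49 (log2 rise 0.65 ± 0.16, limma adjusted p = 0.0377, and up to 0.123 with any library other than replicate 1 at 120 min left out). The 65 mitochondrial ribosomal protein genes had a lower median of −0.28, with 19 lower and none higher, or 13 lower and 2 higher when centred on the median gene, and Mrps2 changed by −1.69 ± 0.22. Of 73 respiratory chain genes 5 fell, of 37 proteasome subunit genes 2 and of 15 glycolysis genes 2, with none higher in these 3 lists. With libraries centred on the median gene 10 respiratory chain, 2 proteasome and 1 glycolysis gene were higher, and without replicate 1 at 120 min 10 respiratory chain and 7 proteasome genes were lower. Slc2a1, the glucose transporter GLUT1, changed by −2.37 ± 0.26. It belongs to 183 solute carrier genes of which 37 fell, which is 20.2% and near the share of all genes, and 11 rose, which is 6.01%. The 10 mitochondrially encoded mRNAs, which mitochondrial RNA polymerase makes, all had positive log2 changes with a median of 0.26, but none passed the test. For mt-Nd5 the ratios were 0.896, 1.2 and 1.3 at 120 min and 1.4, 1.35 and 1.44 at 240 min (limma adjusted p = 0.248). Without replicate 1 at 120 min their median was −0.02.

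**Figure D4:**
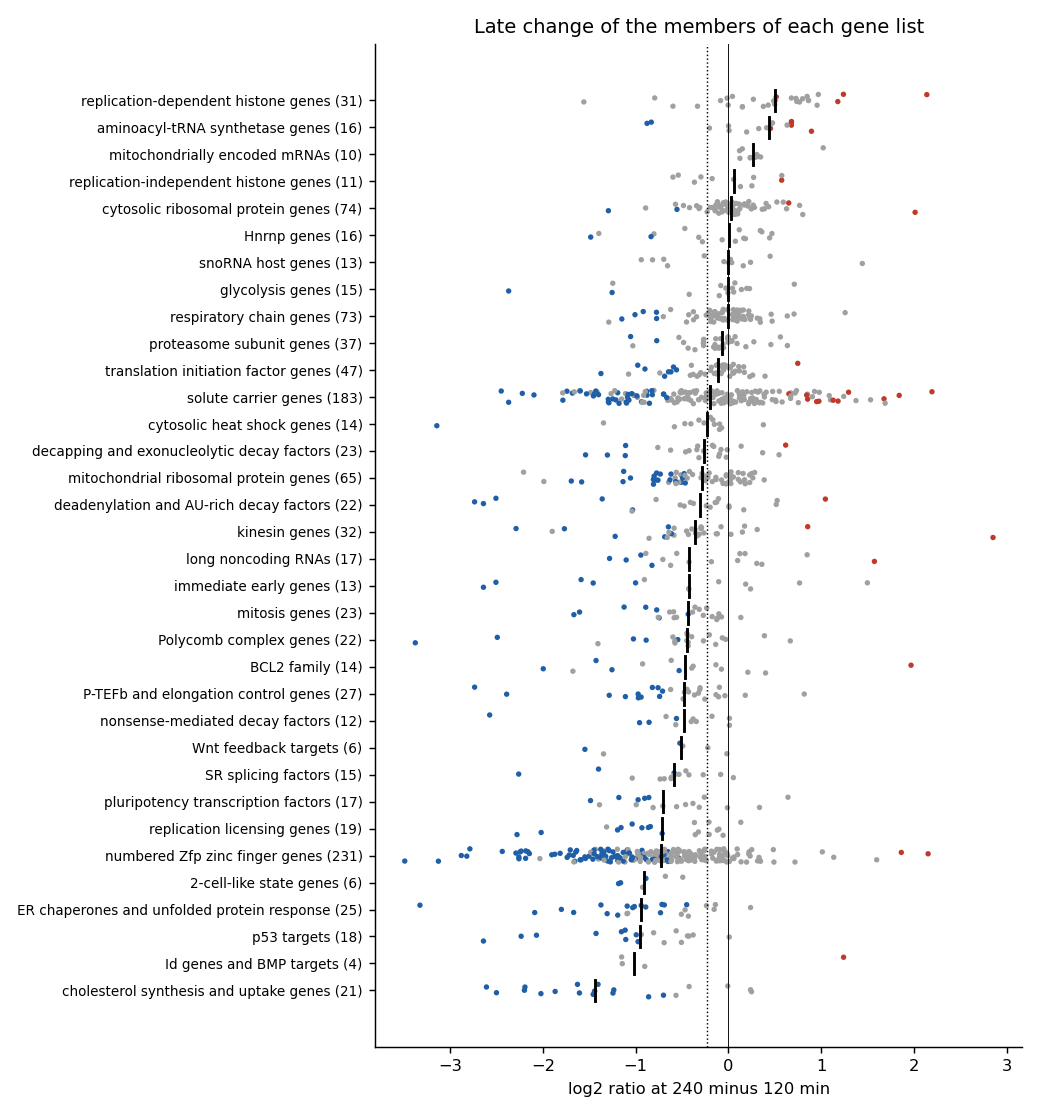
Log2 ratio at 240 min minus 120 min (x axis) of each member of each gene list (y axis, with the number tested), red where the gene rose, blue where it fell and grey where it was not called by limma. Black ticks are list medians and the dotted line is the median of all genes, −0.23. Cholesterol genes lie lowest with a median of −1.44, and replication-dependent histone and aminoacyl-tRNA synthetase genes highest with 0.51 and 0.43.

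Whether decay slowed was examined as the difference between the late rate, from 120 to 240 min, and the early rate, from 30 to 120 min, both in log2 units per h over the 12762 genes listed in all 12 whole-cell libraries. The 120 min libraries enter both rates with opposite signs, so an error in them moves the difference. The median gene changed by −0.39 per h early and by −0.12 per h late. Taken per replicate number, the median early rates were −0.47, −0.37 and −0.35 and the late rates −0.04, −0.13 and −0.19, which do not overlap. The late rate was higher, less negative or positive, for 1528 genes, which is 12% of those tested, and lower for 85, which is 0.666% (limma adjusted p under 0.05). Of the 1528, 690 were still falling late and 838 had a late rate of 0 or more. The balance rested on the scale. With libraries centred on the median gene 605 were higher and 595 lower, with the last time point taken as 180 min 643 and 335, and without replicate 1 at 120 min 886 and 89.

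Of 6634 genes that fell between 30 and 120 min, 2090 went on to fall by the test of 240 against 120 min and 213 rose. Over all genes in that test, 18.9% fell and 3.81% rose. The early and the late calls both use the 120 min libraries. The share with a higher late rate went with how far a gene had fallen by 60 min. That time lies inside the early window, so the bins also sort genes by the early rate that the difference subtracts. The median early rate was −1.47 per h in the lowest bin and −0.03 in the highest, so the order of the shares is partly built in. The share was 36.9% of 65 genes with a 60 min ratio under 0.125, 38.8% of 219 between 0.125 and 0.25, and 25.1% of 1591 between 0.25 and 0.5. From there it went down to 11.9% between 0.5 and 0.75, 8.31% between 0.75 and 1, 4.45% between 1 and 1.5 and 1.49% above. The genes of the lowest bin had a median of 5 recovered reads.

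**Figure D5:**
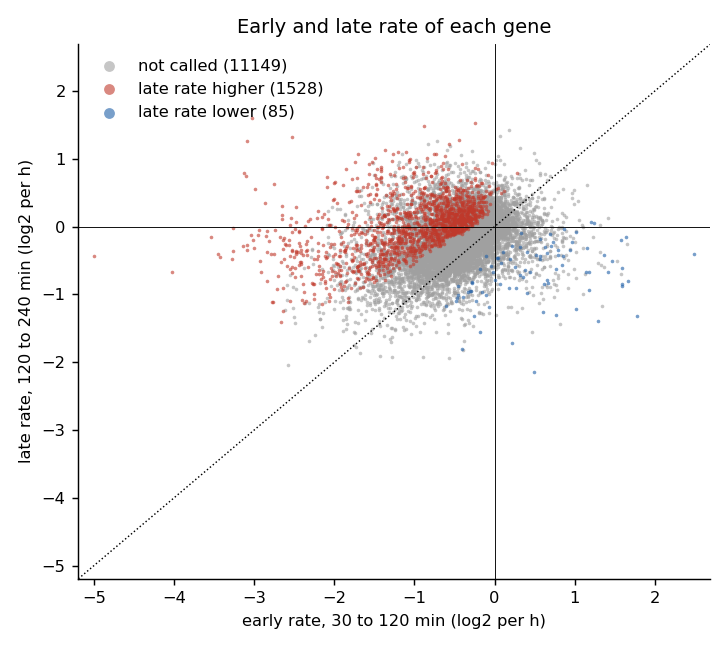
Late rate, 120 to 240 min (y axis), against early rate, 30 to 120 min (x axis), both in log2 per h, with 1 point per gene for 12762 genes. Red marks the 1528 genes whose late rate was higher, blue the 85 whose late rate was lower and grey the others, and the dotted line marks equal rates. The red points lie above the line by definition, and 838 of them lie at a late rate of 0 or more.

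Many pluripotency factors and immediate early genes decayed fast and then slowed. A higher late rate was called for 8 of 17 and for 8 of 13, where 12% of all genes had one, and none of either list had a lower one. With the last time taken as 180 min these numbers were 4 and 5, and 1 immediate early gene had a lower late rate. With libraries centred on the median gene 7 and 8 were higher and 1 of each list was lower. Klf4, a pluripotency factor, had mean ratios of 0.637, 0.301, 0.0443 and 0.0338 at 30, 60, 120 and 240 min. Its rate went from −2.57 to −0.19 per h, a difference of 2.38 (limma adjusted p = 0.000291). The 6 late ratios of Klf4 were 0.0374, 0.0481 and 0.0474 at 120 min and 0.031, 0.0349 and 0.0355 at 240 min. Sox2, its partner in the same network, had means of 0.613, 0.277, 0.0473 and 0.0288 over the 4 times and went from −2.47 to −0.35 per h, a difference of 2.12 (limma adjusted p = 0.00064). Ier2, an immediate early gene, had 0.401, 0.133, 0.0232 and 0.0217 and went from −2.74 to −0.05 per h (difference 2.68, limma adjusted p = 0.000141). All 3 thus slowed at a few percent of their starting level, where Ier2 changed little and the means of Klf4 and Sox2 still went down. Cdkn1a, the p53-induced inhibitor of cyclin-dependent kinases, also slowed while its mean went on falling, with 0.515, 0.202, 0.0304 and 0.0174 and a difference of 2.35 (limma adjusted p = 0.00243). Pou5f1, which encodes OCT4, had no such fall to slow, with mean ratios of 0.962, 0.983, 0.988 and 0.978.

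The largest positive differences belonged to genes that turned from a fall to a rise. Rasl11b went from −3.03 to 1.61 per h, a difference of 4.63 (limma adjusted p = 0.00186), Trib1 from −3.09 to 1.26 (4.34, limma adjusted p = 9.62e-05) and Socs3 from −2.53 to 1.33 (3.86, limma adjusted p = 0.000141). Zfp941 and Junb were also among the 5 largest, with differences of 3.93 and 3.85 (limma adjusted p = 0.00108 and 0.00187). Their recovered reads at 120 min were only 2, 4 and 5 for Zfp941 and 9, 3 and 2 for Junb. The change from 120 to 240 min alone did not pass the test for either. Of the 229 numbered Zfp genes with rates, 95 had a higher late rate and none a lower one, where 12% of all genes had a higher one, while 77 of the 231 fell after 120 min. The 95 became 54 without replicate 1 at 120 min, 69 with 6 lower when centred on the median gene, and 23 with 4 lower when the last time was taken as 180 min. Of the cholesterol genes, 1 had a higher late rate, Srebf2, and 5 a lower one, where 0.666% of all genes had a lower one. The number with a lower one was 10 when centred on the median gene and 9 with 180 min as the last time. Hmgcs1 went from −0.24 to −1.10 per h (difference −0.86, limma adjusted p = 0.00543) and Fdft1 fell faster late by 0.53 per h (difference −0.53, limma adjusted p = 0.00692). Idi1, Cyp51 and Lss were the other 3, so that these mRNAs were lost more slowly before 120 min than after it.

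The largest negative differences were of another kind, a peak at 120 min. Tcf12, an E-protein transcription factor, had mean ratios of 0.699, 1.09, 3.05 and 1.2 at 30, 60, 120 and 240 min (difference of rates −2.09 ± 0.29, limma adjusted p = 0.003). Usp15, a deubiquitinase, had 0.826, 1.43, 2.82 and 1.11 (−1.85, limma adjusted p = 0.00373), and Dtnbp1, a subunit of the BLOC-1 complex, 0.887, 1.02, 2.85 and 1.13 (−1.80, limma adjusted p = 0.00562). All 3 had returned to about their starting level at 240 min. Lrba, a BEACH domain protein, had 0.793, 0.663, 3.25 and 1.42 (−2.20 ± 0.62, limma adjusted p = 0.0452), and Hmgb1-rs16, a processed pseudogene, had a mean of only 4.17 recovered reads. The calls of Lrba and Hmgb1-rs16 were lost, with limma adjusted p of up to 0.106 and 0.123, when any of 9 of the 12 libraries was left out. The falls of Tcf12, Usp15, Dtnbp1 and Lrba from 120 to 240 min passed the test with all libraries, but each was lost without replicates 2 or 3 at 120 min or replicate 3 at 240 min.

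The late change in whole-cell RNA was then set against that in nucleus, cytosol and membrane, each as a difference of changes. No gene was called by limma among 12675, 11832 and 12214 genes, which is 0% in either direction. At an unadjusted p under 0.05, 1494 genes were higher and 148 lower in whole-cell RNA than in nucleus, 1693 and 170 than in cytosol, and 758 and 158 than in membrane. That lean to higher values rested on the scale. With libraries centred on the median gene the counts were 666 and 1125 for nucleus, 571 and 734 for cytosol and 448 and 437 for membrane, and with mitochondrial scaling 30 and 6717, 238 and 186, and 340 and 232. A p that misses the threshold does not show equal changes. For Socs3 the log2 change was 2.66 in whole-cell RNA and 2.04, 2.31 and 2.80 in nucleus, cytosol and membrane, and for Mthfd2 1.73 against 1.55, 1.36 and 1.66. For Hrk it was 1.97 against 1.88, 2.21 and 1.80. For these 3 genes the difference between whole-cell RNA and a fraction was at most 0.62 ± 0.41 (SE, Socs3, nucleus). Xbp1 was more variable, with −3.33 in whole-cell RNA and −3.95, −2.67 and −4.21 in nucleus, cytosol and membrane, and its largest difference was 0.88 ± 0.33 (SE, limma adjusted p = 0.581).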

How the data were processed

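Per the labels, polyadenylated RNA was sequenced as paired ends from stranded mRNA libraries. The submitters' processing notes name STAR 2.7.6, RSEM 1.3.3 and mm10. The authors scaled each library on long-lived mRNAs and divided by the 0 min level, and deposited this ratio. Genes at 0 are not listed and library depth is not given in the sources used here, so whole reads were recovered as the smallest whole numbers whose quotients give the ratios (tolerance 1e-09).

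Log2 ratios, with no pseudocount, were fitted with limma 3.58.1 (trend, empirical Bayes, two-sided, Benjamini-Hochberg) in R 4.3.3. Replicate numbers did not pair the samples, with correlations of deviations between −0.03 and −0.0003. In simulated data for the late comparison, 24% of genes changed by 1 and 67% of those changed by 2 log2 units were recovered among 13416 genes. Genes with an official symbol were named by largest change and smallest p, at most 2 per list and direction, and others by role, after their values were seen. The genes and lists were chosen with earlier results of these data known. Transcripts (longest coding sequence) came from GENCODE M21 (GRCm38). Python 3.11.15 made the sums. Some genes are not reported here.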

Additional observations from a re-analysis of the deposited data

How the results depend on the processing

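Counts of genes, given as higher and lower, depended on the settings. Where the setting itself does not show why, the cause was not tested. For the late change (511 and 2537), the replicate block gave 150 and 700, and whether the numbers pair the samples is not known. Centring on the median gene gave 1309 higher, mitochondrial scaling gave 201 and 4243, and leaving out 1 library gave 138 to 657 and 700 to 3854. Without replicate 1 at 120 min and centred, 1606 were higher. Of the lists, the block left 10 cholesterol, 7 endoplasmic reticulum, 3 p53, 2 P-TEFb, 1 pluripotency and 18 Zfp genes lower and no aminoacyl-tRNA synthetase gene higher or lower. For the change of rate (1528 and 85), centring gave 605 and 595, mitochondrial scaling 623 higher, an early window from 60 min 295 and 18, a last time of 180 min 643 and 335, and voom on recovered reads 137 lower. Leaving out 1 library gave 852 to 1406 and 38 to 89, and leaving out replicate 1 at 120 min with centring 583 and 637. Against the other fractions (0 in each), mitochondrial scaling gave 12 lower for nucleus, and leaving out a replicate number 0 to 6 higher. For cytosol a pseudocount of 0.1 gave 22 higher and 1 lower, the genes listed in all 48 libraries 18 higher, and centring 1 lower. For membrane, leaving out a replicate number gave 0 to 1 lower. The difference of library medians was −0.51 under mitochondrial scaling and −0.32 to −0.18 leaving out a library. Of 68 named late calls, 51 held without any 1 library and 17 were lost (highest limma adjusted p 0.123), and of 23 named rate calls 21 held. The voom tests, the minimum of 10 recovered reads and the centring without a library were chosen after seeing the data. Depth limits the 109 risen and 274 fallen genes under 10 recovered reads.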
